A study of Callithrix jacchus with 20 samples.

Results

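The genes described here are the WNT ligands, their receptors and the secreted proteins that modulate them, in common marmoset (Callithrix jacchus) cells taken from pluripotency towards primordial germ cell-like cells. Members were chosen by symbol alone and not by any measured value, although earlier results of these data were known. They are the numbered WNT, FZD, SFRP, DKK and RSPO genes together with LRP5, LRP6, FRZB, WIF1, PORCN and WLS. In this way 47 of 25102 genes in the count table were taken, namely 19 WNT ligands, 10 FZD receptors, the 2 co-receptors LRP5 and LRP6, 4 DKK and 6 SFRP, FRZB or WIF1 antagonists, 4 RSPO agonists, and PORCN and WLS.

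WNT ligands are secreted lipid-modified proteins that act over short distances. PORCN attaches the lipid and WLS carries the ligand to the cell surface, where it binds a Frizzled (FZD) receptor and, in the canonical branch, the co-receptor LRP5 or LRP6. This stops the degradation of β-catenin, which then acts with TCF and LEF factors on target genes. WNT5A, WNT5B and WNT11 are best known for β-catenin-independent signalling. SFRP proteins, FRZB and WIF1 bind the ligands, DKK1, DKK2 and DKK4 bind LRP5 and LRP6, and R-spondins (RSPO) protect Frizzled receptors from removal at the surface. In embryos, WNT signals help to form the primitive streak and to make cells competent for the germ cell fate.

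Bulk RNA-seq was done on 20 libraries of 10 conditions with 2 biological replicates each, all from DPZ_cjiPSC#2 (written DPZ_cjiPSC2 in the sample labels), which is 1 line of marmoset induced pluripotent stem cells (cjiPSCs) made from foetal fibroblasts. The cjiPSCs were kept in TESR medium or in cjPSCM, an expanded-potential type of medium that holds LIF, TGFβ, FGF2, vitamin C and the SRC family inhibitor A419259 together with CHIR, a GSK3 inhibitor that activates β-catenin signalling, and IWR-1, a tankyrase inhibitor that counters it. From each medium, precursors of mesendoderm (pre-ME) were induced with CHIR and the ROCK inhibitor Y-27632, with Activin A (pre-ME + ActA) or without it (pre-ME − ActA). The pre-ME of the cjPSCM cultures, + ActA and − ActA, were then aggregated into embryoid bodies with BMP4, LIF, SCF and EGF, and sorted at day 4 into double-positive cells (cjPGCLCs) and double-negative cells (somatic cells). CHIR was therefore present in every pre-ME and in the cjPSCM cjiPSCs, and cjPSCM cjiPSCs also had IWR-1. The sample titles name EpCAM with INTa6 as sort markers, the other labels EpCAM with CXCR4 and the design text CXCR4 with INTα6. CXCR4, EPCAM and ITGA6 RNA were each higher in the double-positive cells in both sorts.

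Between 4784964 and 22067099 reads were counted on genes per library. Of these, 0.175% to 0.768% fell on the 47 members. Germ cell markers summed to 1339.6 to 1391 normalised counts in cjPGCLCs + ActA and 2594 to 2648 in cjPGCLCs − ActA, against 267 to 339.9 and 168 to 234 in the somatic cells, and 5 of 5 of these genes were called higher in each sort (all genes 3.68% with and 6.67% without ActA). The cjiPSCs themselves had sums of 1130.4 to 1214 in TESR medium and 1247 to 2231 in cjPSCM, so the cjPGCLCs + ActA lay within the range of the cjPSCM cjiPSCs. From TESR medium, 6 mesendoderm and mesoderm markers summed to 359 to 566 in cjiPSCs, 182 to 222 in pre-ME − ActA and 459 to 912 in pre-ME + ActA. From cjPSCM the same sums were 34.1 to 52.7, 34.7 to 41.3 and 87.1 to 102. Without ActA neither pre-ME therefore lay above the cjiPSCs of its medium in this sum. With ActA the sum lay above the cjiPSCs from cjPSCM, and from TESR medium the ranges overlapped. By single genes, HAND1, MIXL1 and TBXT of the 6 were called higher with ActA from TESR medium (all genes 17.3%). From cjPSCM only EOMES was called higher with ActA (all genes 7.42%). Without ActA 0 of 6 were called higher from either medium (all genes 17.4% and 17.9%). The label of pre-ME was thus matched by these markers in part, and only with ActA. TBXT did not exceed 1.67 normalised counts in any pre-ME library from cjPSCM. The 2 cjPSCM cjiPSC libraries differed most from each other, with an SD over genes of the log2 difference of 0.885 against 0.279 to 0.571 in the other 9 conditions. Members with the widest gap between them were FRZB with 30.1 and 191 normalised counts, FZD6 with 58.4 and 339, SFRP1 with 1186 and 5819.6 and FZD7 with 1079 and 2735. Fewer cells of a type and less RNA per cell cannot be told apart in any of these bulk libraries.

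Of the 47 members, 26 had reads in all 20 libraries and 7 never had more than 10 reads in any. A filter on low counts left 38 members among 15797 genes for testing. The other 9, which were DKK4, FZD10, RSPO1, RSPO4, WNT10A, WNT16, WNT7B, WNT8B and WNT9B, were not tested. Among the tested members 26 were called with a log2 fold change beyond 2 in at least 1 of 17 comparisons, 11 were called only with smaller changes, and FZD6 was called in none. A call is an adjusted p under 0.05 in edgeR's quasi-likelihood test, and the log2 fold change of 2 is the second threshold used in the study. Fold changes are given with their standard error (SE), also after ± in parentheses. Since a filter on low values passes a gene through the condition in which it is high, these counts describe the members and test nothing.

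The highest condition of a member was a sorted day 4 population for 24 of 38 tested members (63.2%), against 36.3% of all genes tested, and cjPGCLCs held the maximum of 16 of them (42.1%, against 16.9%). In 19 of 38 members the 2 libraries of the highest condition lay above all other libraries, against 32.2% of all genes tested. RSPO2, RSPO3, WNT1, WNT3 and WNT11 peaked in cjPGCLCs, WNT2, WNT5A, FZD4 and SFRP1 in somatic cells − ActA, and SFRP2 and WNT10B in somatic cells + ActA. WNT5B, DKK1 and DKK2 peaked in TESR pre-ME + ActA, and WNT7A and WNT4 in cjPSCM pre-ME + ActA, although for WNT4 the maximum moved to TESR pre-ME + ActA with TMM-normalised CPM. DKK3, FZD2, FZD7, FZD8, FZD9 and WNT2B peaked in cjiPSCs in TESR medium, and no member had its maximum in cjPSCM cjiPSCs.

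**Figure D1:**
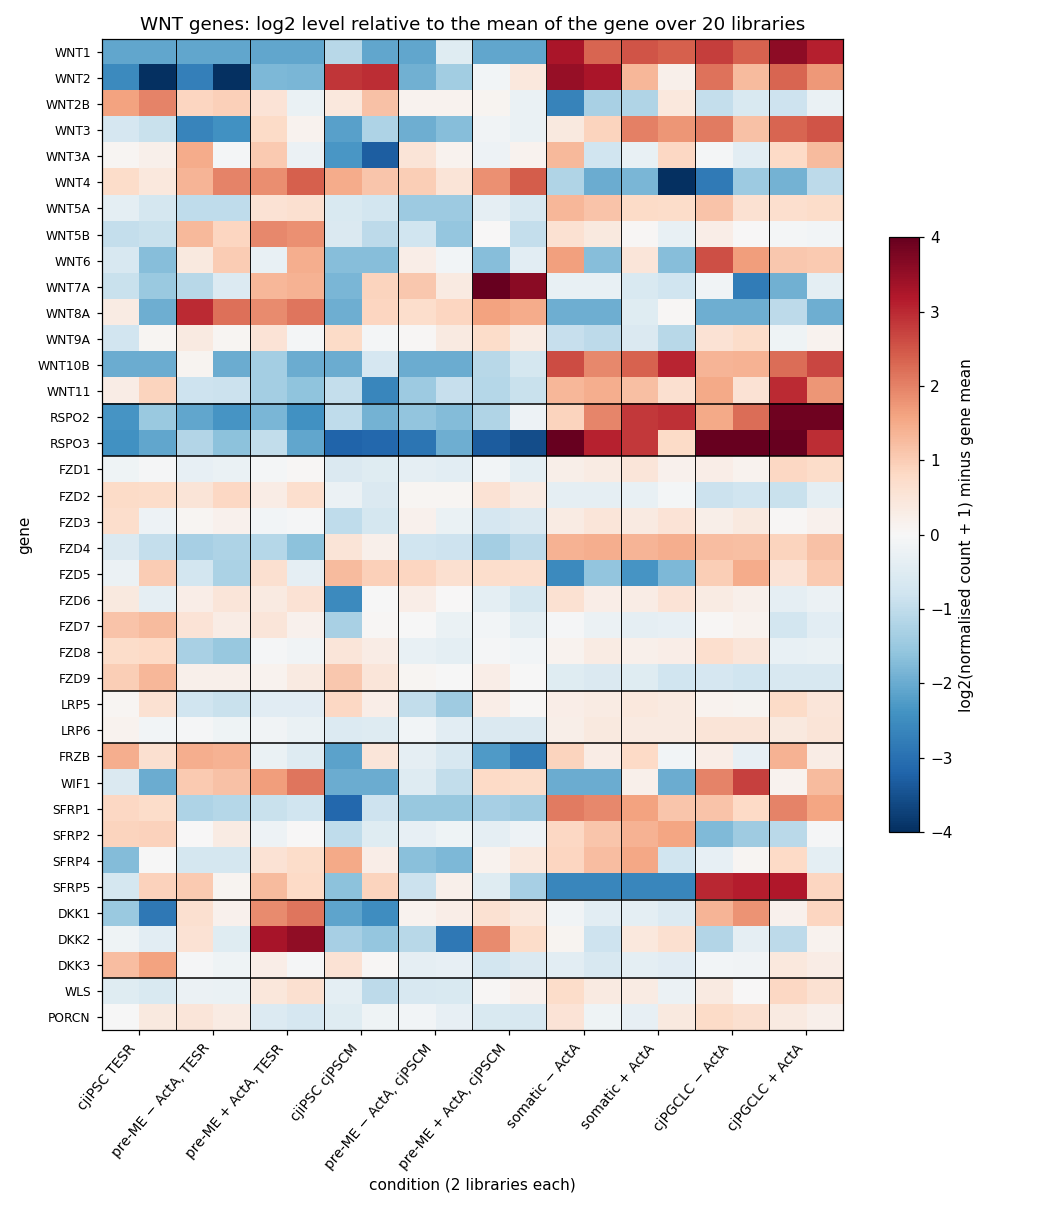
Level of the 38 tested members in 20 libraries, as log2(normalised count + 1) minus the mean of each gene over all libraries (colour, cut at −4 and 4), with conditions along the horizontal axis in pairs of libraries and genes grouped by role along the vertical axis. RSPO2, RSPO3, WNT1 and WNT10B are above their mean (red or orange) in the 8 sorted day 4 libraries and blue or pale in the 12 others.

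The first comparison asked how the culture medium changes these genes in cjiPSCs. In cjPSCM, 3 members were higher (of all genes tested 18.1% were) and 12 lower (of all genes 18.1%) than in TESR medium, with a member median of -0.41 on the log2 scale. WNT2, a canonical ligand known from lung and heart development, was nearly silent in TESR medium with 3.86 and 0 normalised counts and clearly expressed in cjPSCM with 203 and 218. Its log2 fold change was 6.18 ± 0.64 (SE, adjusted p = 1.46e-06), and without TESR replicate 1, which left the TESR library at 0, the fitted value became 10.83. The receptor FZD4 rose less, from 1252 and 966 to 2673 and 2176, with a log2 fold change of 1.10 ± 0.18 (SE, adjusted p = 0.000129). SFRP4, the other gene that was higher, went from 1.10 and 5.96 to 18.8 and 7.41, and its call was lost without replicate 1 of either medium and in DESeq2.

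Of the 12 genes that fell in cjPSCM, 4 were antagonists and 6 receptors or co-receptors. SFRP1, an antagonist that binds WNT proteins, had 18436 and 17118 normalised counts in TESR medium against 1186 and 5819.6 in cjPSCM, a log2 fold change of -2.38 ± 0.43 (SE, adjusted p = 0.000407). The fall of SFRP1 was called without either cjPSCM library, with a log2 fold change of -1.65 without replicate 1 and -3.90 without replicate 2. SFRP2 fell by 1.64 and FRZB by 1.53 on the log2 scale, but FRZB lost its call without replicate 1 of either medium. Of 9 FZD receptors tested, 5 were lower, with FZD7 the most changed at a log2 fold change of -1.70 ± 0.27 (SE, adjusted p = 0.000137). The others were FZD1, FZD2, FZD3 and FZD8, of which FZD8 lost its call without replicate 1 or 2 of TESR medium or replicate 2 of cjPSCM, and FZD1 without replicate 1 of cjPSCM. LRP6, the co-receptor, fell by 0.57 and DKK3 by 1.11 on the same scale. WNT11 was the most reduced ligand with ample counts, at 72.2 and 110.2 in TESR against 30.1 and 8.89 in cjPSCM, a log2 fold change of -2.09 ± 0.50 (SE, adjusted p = 0.00342). Without cjPSCM replicate 1 and 2 the log2 fold changes were -1.18 and -2.48 for FZD7, and -3.33 and -1.54 for WNT11, all called. WNT3A, the ligand of the primitive streak, was low in both media, with 9.36 and 10.4 in TESR medium against 0.942 and 0 in cjPSCM, a ratio of 16.8 in favour of TESR medium with a 95% counting interval of 2.73 to 689, and its call was lost without TESR replicate 1 or either cjPSCM library. Such intervals, here and in parentheses after later ratios, are given where a condition had 1 to 3 counts over its 2 libraries, and they cover counting error only. Markers of other cell types moved in the same comparison. GATA4 and GATA6 of 5 endoderm markers and CDH5 and PECAM1 of 3 endothelial markers were higher beyond a log2 fold change of 2 in cjPSCM. The endoderm list summed to 223 to 378 in TESR medium and 2398 to 2964 in cjPSCM, and the endothelial list to 7366 to 8908 and 14057 to 29827. Their part in the result was not tested.

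Induction of pre-ME was compared next with the cjiPSCs of the same medium. From TESR medium 10 members rose and 12 fell in pre-ME + ActA, where 17.3% of all genes tested rose and 17.1% fell. In pre-ME − ActA 5 rose and 12 fell (all genes 17.4% and 19.2%). From cjPSCM 7 rose and 6 fell with ActA (all genes 7.42% and 10.3%), and 4 rose and 8 fell without it (all genes 17.9% and 20.1%). The pairs of comparisons from one medium share their cjiPSC libraries and are given side by side. The β-catenin feedback targets of a list of 9 (AXIN2, NKD1, NKD2, RNF43, ZNRF3, SP5, TBXT, CDX1 and CDX2) responded in all 4, with 8 and 7 higher from TESR medium and 7 and 7 from cjPSCM. NKD2 was the one feedback target called lower, from cjPSCM without ActA. SP5 had log2 fold changes between 5.57 and 6.72, and the effectors LEF1 and TCF7 were called beyond a log2 fold change of 2 in each.

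DKK1, the LRP5/6 antagonist and itself a β-catenin target, was the member that rose beyond a log2 fold change of 2 in all 4 inductions. In TESR medium it had 281 and 107 normalised counts in cjiPSCs, 1242 and 885 in pre-ME − ActA and 2921 and 3484 in pre-ME + ActA. In cjPSCM it had 182 and 141 in cjiPSCs, 870.1 and 956 in pre-ME − ActA and 1207 and 1065 in pre-ME + ActA. No pre-ME library overlapped the cjiPSCs of its medium. The log2 fold changes were 3.98 ± 0.34 (SE, adjusted p = 4.75e-07) and 2.39 ± 0.32 (SE, adjusted p = 3.81e-05) from TESR medium, and 2.82 ± 0.34 (SE, adjusted p = 3.14e-05) and 2.52 ± 0.33 (SE, adjusted p = 3.8e-05) from cjPSCM, each time with ActA first, and no single library decided any of them. NOTUM, a secreted enzyme that removes the lipid from WNT ligands, was likewise higher in all 4, by 7.25, 6.59, 5.42 and 3.20 on the log2 scale in the same order. DKK3, a divergent DKK relative, fell in all 4, by 1.30, 1.53, 0.99 and 0.65, the last lost without replicate 1 of either condition.

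Among ligands, WNT5B responded from TESR medium. It had 129 and 136 normalised counts in cjiPSCs, 619.9 and 453 in pre-ME − ActA and 954 and 893 in pre-ME + ActA, with log2 fold changes of 2.03 ± 0.28 (SE, adjusted p = 4.39e-05) and 2.81 ± 0.28 (SE, adjusted p = 2.29e-06). From cjPSCM it had 168 and 122 in cjiPSCs, 144 and 85.2 in pre-ME − ActA and 255 and 129 in pre-ME + ActA, and neither change was called. WNT8A, a canonical ligand of the early streak, was low in TESR cjiPSCs at 3.86 and 0 and reached 29.6 and 16.8 in pre-ME − ActA and 13.1 and 15.9 in pre-ME + ActA. The call of WNT8A with ActA was lost without TESR cjiPSC replicate 2 or either pre-ME library and in DESeq2, while the call without ActA was kept, with a fitted log2 fold change of 2.54 to 7.68 when 1 library was left out, the highest without TESR cjiPSC replicate 1. WNT4, known for its part in gonad and kidney development, rose from 46.8 and 37.2 to 102 and 149 with ActA and to 73 and 114 without it, where the first call was lost without pre-ME replicate 2 and the second without either cjiPSC library or pre-ME replicate 2. WNT11 fell from TESR medium, to 22.4 and 18.6 with ActA (-2.10 ± 0.45, adjusted p = 0.00204) and 32.4 and 31.8 without it (-1.46 ± 0.43, adjusted p = 0.0146), the latter lost without cjiPSC replicate 2 or either pre-ME library.

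WNT7A and DKK2 rose on induction with ActA from both media, and WNT5A from TESR medium. WNT7A had 2.75 and 1.49 normalised counts in TESR cjiPSCs and 0.942 and 11.9 in cjPSCM cjiPSCs, and its log2 fold changes in pre-ME + ActA were 2.76 ± 0.77 (SE, adjusted p = 0.0108), lost without TESR cjiPSC replicate 1, and 4.41 ± 0.65 (SE, adjusted p = 0.000205), lost when the 4 libraries were fitted alone and at 6.80 without cjPSCM cjiPSC replicate 2. DKK2 had 5.51 and 4.47 in TESR cjiPSCs, with a log2 fold change of 3.89 ± 0.53 (SE, adjusted p = 4.5e-05) that no single library decided. In cjPSCM cjiPSCs it had 1.88 and 1.48 and a ratio of 11.8 (3.76 to 59.8), lost without replicate 1 of either condition. WNT5A, with 576 and 456 in TESR and 488 and 451 in cjPSCM cjiPSCs, rose with ActA from TESR medium (1.16 ± 0.16, adjusted p = 6.3e-05) and was not called with ActA from cjPSCM (0.20 ± 0.17, adjusted p = 0.441). WNT5A fell without ActA from TESR medium by 0.47, lost without cjiPSC replicate 1 or either pre-ME library, and from cjPSCM by 0.74. WNT3 fell without ActA from TESR medium (-2.32 ± 0.60, adjusted p = 0.00625, lost without cjiPSC replicate 1). With ActA from cjPSCM WNT3 rose by 1.81 (edgeR adjusted p = 0.0461), a call not kept in every fit with 1 library left out. FRZB, another WNT-binding antagonist, fell with ActA from cjPSCM (-2.08 ± 0.67, adjusted p = 0.0407), where only leaving out cjiPSC replicate 1 kept the call.

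WNT2 lost on induction the level it had in cjPSCM cjiPSCs. It fell from 203 and 218 normalised counts to 25 and 36.5 in pre-ME + ActA and 6.48 and 9.91 in pre-ME − ActA. The log2 fold changes were -2.78 ± 0.47 (SE, adjusted p = 0.000679) and -4.68 ± 0.54 (SE, adjusted p = 1.07e-05), and both stayed called whichever library was left out. WNT3A went the other way without ActA, to 13 and 9.91, a ratio of 20.5 with a counting interval of 3.43 to 836, which was lost without replicate 1 of either condition. With ActA WNT3A had 7.51 and 9.83, a ratio of 14.5 (2.26 to 609.8) with an adjusted p of 0.0634. SFRP4 fell without ActA from 18.8 and 7.41 to 1.18 and 0.991, a ratio of 13 (3.96 to 67.2) in favour of cjiPSCs, which was lost without cjPSCM cjiPSC replicate 1.

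**Figure D2:**
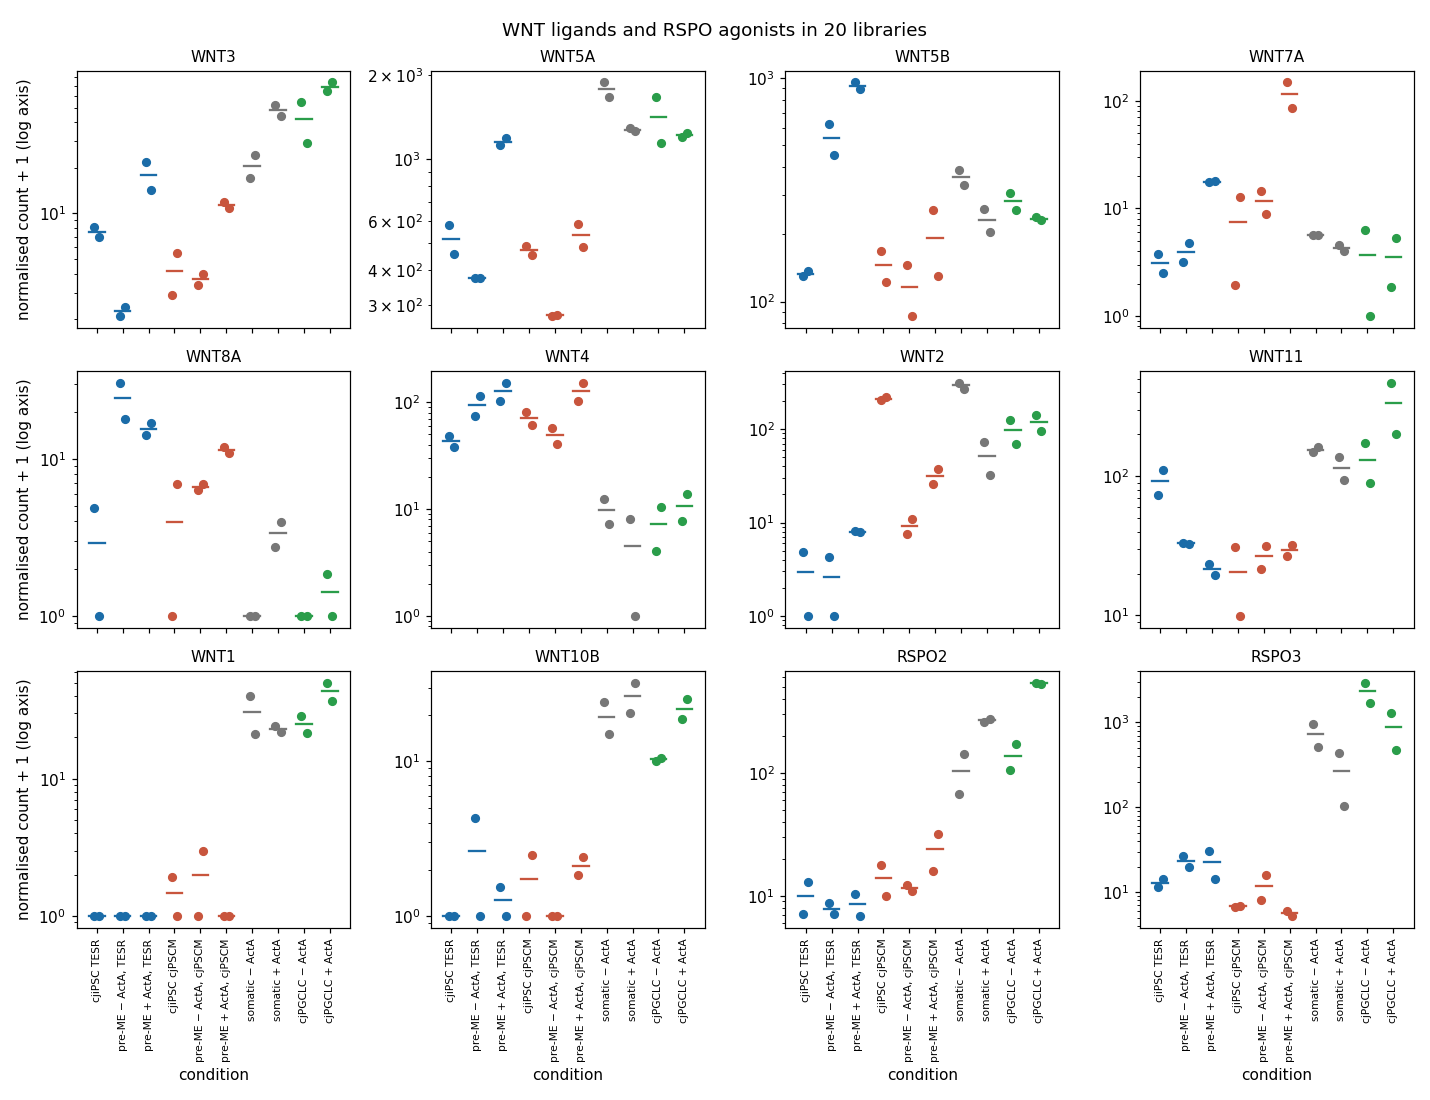
Normalised counts + 1 (log axis) of 10 WNT ligands and of RSPO2 and RSPO3 in each library (points) of the 10 conditions, with the mean of 2 libraries as a bar. Blue marks TESR medium, red cjPSCM, grey somatic cells and green cjPGCLCs. WNT2 is high in cjPSCM cjiPSCs, low in pre-ME and called higher than in pre-ME in 3 of the 4 day 4 populations, and RSPO3 does not exceed a normalised count of 29.6 before day 4.

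Of the Frizzled receptors, 4 of 9 FZD genes fell from TESR medium with ActA (all genes 17.1%) and 5 of 9 without it (all genes 19.2%), and none was called higher. FZD8 and FZD9 kept these calls whichever library was left out, while FZD7 lost its call in 2 of 4 such fits with ActA and in 4 of 4 without it, and FZD5 lost its call without ActA in 2 of 4. From cjPSCM 3 of 9 fell and 1 rose with ActA (all genes 10.3% and 7.42%), and 3 fell and 2 rose without it (all genes 20.1% and 17.9%). There FZD8 and FZD9 lost their calls with ActA in 3 of 4 fits each, and without ActA FZD9 lost its call in 1 and FZD3, which rose, in 2. FZD8 changed most, and this was from TESR medium. It went from 848 and 895 normalised counts in TESR cjiPSCs to 208 and 178 in pre-ME − ActA, with a change of -2.16 ± 0.13 (SE, adjusted p = 1.11e-08) on the log2 scale. In pre-ME + ActA from TESR medium it had 499 and 463, with a change of -0.85 ± 0.13 (SE, adjusted p = 0.000103) on that scale. FZD4 fell in all 4 inductions, with log2 fold changes of -1.56 ± 0.18 (SE, adjusted p = 2.33e-05) and -1.14 ± 0.18 (SE, adjusted p = 0.000153) from cjPSCM, and smaller ones from TESR medium of -0.60 ± 0.18 (SE, adjusted p = 0.0147), lost without cjiPSC replicate 1 or pre-ME replicate 2, and -0.51 ± 0.18 (SE, adjusted p = 0.0313), called without cjiPSC replicate 2 only. FZD2 rose from cjPSCM, by 0.85 with ActA (lost without pre-ME replicate 1) and by 0.50 without it (called without cjiPSC replicate 1 only). LRP5 fell without ActA from both media, with log2 fold changes of -1.20 ± 0.19 (SE, adjusted p = 0.000174) and -1.74 ± 0.20 (SE, adjusted p = 8.38e-06). With ActA LRP5 was also called lower from TESR medium, a call not kept in every fit with 1 library left out. From cjPSCM with ActA it was not called. SFRP1 fell from 18436 and 17118 in TESR cjiPSCs to 5634 and 5906 in pre-ME + ActA and 4377 and 4749.7 in pre-ME − ActA, with the first call lost without pre-ME replicate 1, and from cjPSCM it was not called, at 1186 and 5819.6 in cjiPSCs and 3639.6 and 3656 in pre-ME − ActA. WIF1, a secreted WNT-binding protein, stayed low. It had 1.65 and 0 in TESR cjiPSCs, 11.5 and 16.5 in pre-ME + ActA and 7.13 and 7.95 in pre-ME − ActA, with ratios of 11.6 (3.76 to 58.1) and 6.28 (1.95 to 32.2). From cjPSCM WIF1 was at 0 in both cjiPSC libraries and at least 3.33-fold higher with ActA, against a floor of 3 counts over both libraries. This was lost without cjPSCM cjiPSC replicate 1 or either pre-ME library, and the WIF1 call without ActA from TESR medium was lost without cjiPSC replicate 2 or either pre-ME library and in DESeq2.

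Single libraries changed how many members were called from cjPSCM with ActA. The 13 calls became 8 without cjPSCM cjiPSC replicate 1, 17 without cjPSCM cjiPSC replicate 2, and 5 and 7 without pre-ME replicate 1 and 2. DKK1, DKK3, FZD4, WNT2 and WNT7A were called in all 4 of these fits. Without ActA the 12 calls became 18 without cjPSCM cjiPSC replicate 2. From TESR medium without ActA the 17 calls became 11 without pre-ME replicate 2.

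Whether the response to induction without ActA differed between the media was tested as an interaction. Of 38 members 6 were called (6.54% of all genes). WNT5B responded less from cjPSCM, by a difference of log2 fold changes of -2.32 ± 0.40 (SE, adjusted p = 0.00249). FZD8 fell less from cjPSCM (1.46 ± 0.18, adjusted p = 0.000199). For both genes no single library decided the call. SFRP1 (2.06 ± 0.59, adjusted p = 0.0457), SFRP2 (1.20 ± 0.35, adjusted p = 0.0486), FZD3 (1.07 ± 0.31, adjusted p = 0.0474) and DKK3 (0.88 ± 0.24, adjusted p = 0.0384) also had differences above 0, and each lost its call when any of 5 or 6 of the 8 libraries was left out. The 6 calls became 11 without cjPSCM cjiPSC replicate 2, 3 without TESR cjiPSC replicate 1, and 2 or 3 without replicate 1 or 2 of pre-ME − ActA from either medium. The starting cells differ here, since cjPSCM already contains CHIR and IWR-1.

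The effect of ActA on pre-ME was then compared within each medium. With ActA 7 members were higher and 2 lower from TESR medium (all genes 5.63% and 3.2%), and 8 were higher and 1 lower from cjPSCM (all genes 11.4% and 9.54%). These comparisons share no library. DKK2, WLS, WNT3, WNT5A and WNT7A were higher and FRZB lower in both, that is 5 of the 7 that rose from TESR medium (71.4%) and 5 of the 8 that rose from cjPSCM (62.5%), while FRZB was 1 of 2 that fell from TESR medium and the 1 that fell from cjPSCM. How large this overlap is over all genes was not counted, so these shares only describe the members. No FZD receptor was called in cjPSCM, and FZD8 alone in TESR medium.

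WNT3, a canonical ligand needed for streak formation, had 1.10 and 1.40 normalised counts without ActA and 20.8 and 13.3 with it from TESR medium, a log2 fold change of 3.64 ± 0.50 (SE, adjusted p = 0.000137). From cjPSCM it had 2.36 and 2.97 without and 10.8 and 9.83 with ActA, a log2 fold change of 1.94 ± 0.55 (SE, adjusted p = 0.0217). WNT7A, known from neural and limb patterning, went from 2.19 and 3.74 without to 16.4 and 17 with ActA in cells from TESR medium, and in cells from cjPSCM from 13.6 and 7.93 to 147 and 84.3. Its log2 fold changes were 2.43 ± 0.66 (SE, adjusted p = 0.0269) and 3.36 ± 0.55 (SE, adjusted p = 0.000655), and the WNT7A level in cjPSCM pre-ME + ActA was the highest in the series. WNT5A, known for guiding cell movements in the streak, went from 373 and 372 without to 1121 and 1183 with ActA from TESR medium. From cjPSCM it went from 272 and 275 to 584 and 480.3. Its log2 fold changes of 1.63 ± 0.16 (SE, adjusted p = 6.26e-06) and 0.94 ± 0.17 (SE, adjusted p = 0.00131) stayed called whichever library was left out.

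Antagonists moved in both directions. DKK2 rose from 9.88 and 4.21 to 71.7 and 84.4 from TESR medium, a log2 fold change of 3.47 ± 0.47 (SE, adjusted p = 0.000116), and from 2.36 and 0 to 25.9 and 11.2 from cjPSCM (3.64 ± 0.71, adjusted p = 0.00267, lost without pre-ME + ActA replicate 1 and at 7.42 without pre-ME − ActA replicate 1). FRZB fell from 371 and 359.8 to 112 and 93.9 in cells from TESR medium, and from 105 and 87.2 to 27.5 and 19.7 in cells from cjPSCM, with log2 fold changes of -1.83 ± 0.51 (SE, adjusted p = 0.0314) and -2.01 ± 0.65 (SE, adjusted p = 0.0386). DKK1 rose with ActA from TESR medium (1.59 ± 0.30, adjusted p = 0.00228, lost without pre-ME − ActA replicate 2) and was not called from cjPSCM (0.30 ± 0.30, adjusted p = 0.507). WLS, which carries ligands to the surface, rose by 0.79 and 0.72, and PORCN fell from TESR medium (-1.03 ± 0.25, adjusted p = 0.0132). LRP5 rose from cjPSCM from 1689 and 1259 to 4010.1 and 3479, a log2 fold change of 1.33 ± 0.19 (SE, adjusted p = 0.000238), and WNT4 (1.36 ± 0.40, adjusted p = 0.0247) and WNT2 (1.90 ± 0.61, adjusted p = 0.0356) rose there as well.

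**Figure D3:**
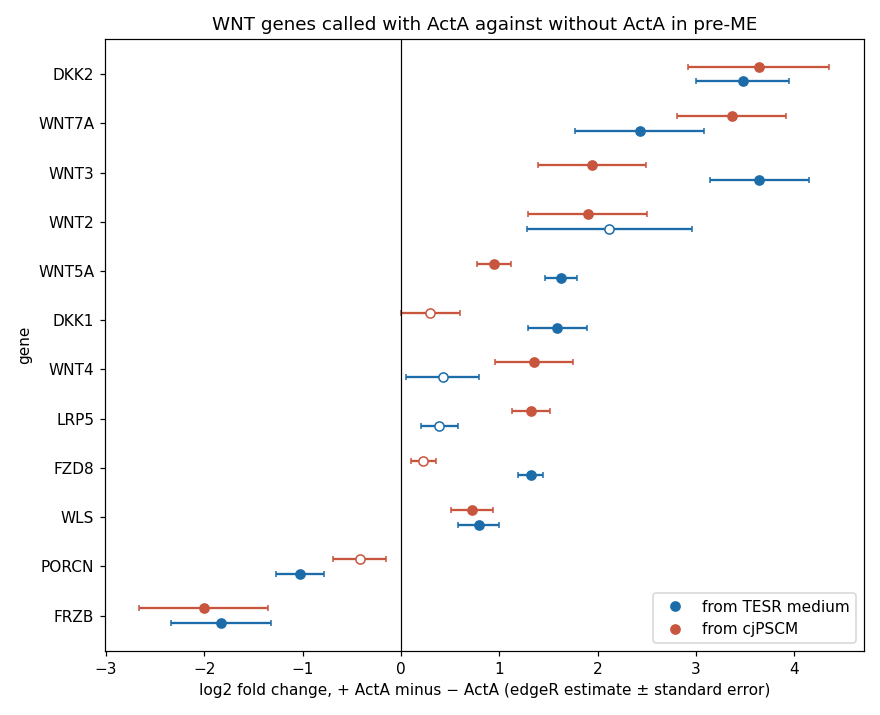
Log2 fold change with its standard error (horizontal axis) of the members called with ActA against without ActA in pre-ME from TESR medium (blue) or cjPSCM (red), 2 libraries in each of the 4 conditions. Filled points are called and open points are not. WNT3, WNT7A, DKK2, WNT5A and WLS lie right of 0 and FRZB left of it in both.

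The calls for ActA were checked with each of the 4 libraries left out. From TESR medium DKK2, FZD8, WNT3 and WNT5A were called in all 4 such fits, while FRZB, PORCN, WLS and WNT7A were called in none, and the 9 calls became 4 without pre-ME − ActA replicate 2 and 5 without pre-ME + ActA replicate 1. From cjPSCM LRP5, WNT5A and WNT7A were called in all 4 fits and FRZB, WLS, WNT2, WNT3 and WNT4 in none, and the 9 calls became 3 and 5 without pre-ME + ActA replicate 1 and 2, and 5 and 4 without pre-ME − ActA replicate 1 and 2. Of 38 members 1 had an ActA effect that differed between the media (0.399% of all genes). FZD8 rose from 208 and 178 to 499 and 463 from TESR medium (1.32 ± 0.13, adjusted p = 5.2e-06) and had 419.7 and 392 without and 492 and 472 with ActA from cjPSCM (0.23 ± 0.13, adjusted p = 0.218), an interaction of -1.09 ± 0.18 (SE, adjusted p = 0.0154). That call was lost without cjPSCM pre-ME − ActA replicate 2, either cjPSCM pre-ME + ActA library, TESR pre-ME − ActA replicate 2 or TESR pre-ME + ActA replicate 1. The interaction was not called for DKK1 (adjusted p = 0.164) or LRP5 (adjusted p = 0.136). With ActA 4 of 6 mesendoderm and mesoderm markers were higher from TESR medium (all genes 5.63%) and 2 of 6 from cjPSCM (all genes 11.4%). Their sums are given above, and their part in the result was not tested. Among 8 planar polarity genes 5 were lower with ActA from TESR medium (all genes 3.2%) and 3 from cjPSCM (all genes 9.54%). None of these planar polarity genes was higher.

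Pre-ME of both origins were also compared directly. From cjPSCM 4 members were higher and 7 lower than from TESR medium with ActA (all genes 13.2% and 14.2%), and 2 were higher and 4 lower without ActA (all genes 8.08% and 5.96%). WNT5B was lower from cjPSCM in both, with log2 fold changes of -2.25 ± 0.27 (SE, adjusted p = 2.11e-05) with and -2.20 ± 0.28 (SE, adjusted p = 3.22e-05) without ActA, and no single library decided either. FRZB was lower by 2.10 and 1.92 on the log2 scale, but was called in none of the fits with 1 library fewer. With ActA, WNT7A (2.78 ± 0.51, adjusted p = 0.0009) was higher from cjPSCM, and DKK1 (-1.51 ± 0.30, adjusted p = 0.00175) and WNT5A (-1.12 ± 0.16, adjusted p = 0.000125) were lower. DKK2 was lower by 2.01, which was lost without cjPSCM pre-ME + ActA replicate 2, and WNT2 was higher by 2.07, which was lost without that library or either TESR library. Without ActA, FZD8 (1.08 ± 0.13, adjusted p = 2.15e-05) was higher, FZD5 was higher by 1.77 except without TESR pre-ME − ActA replicate 2, and WNT8A was lower by 2.03 but in none of the fits with 1 library fewer and not in DESeq2. The 11 calls with ActA became 5 without cjPSCM replicate 2, and 5 and 6 without TESR replicate 1 and 2, and the 6 calls without ActA became 3 without cjPSCM replicate 2 and 2 without TESR replicate 2. In the same comparisons 5 and 8 of 9 feedback targets were lower from cjPSCM, and SOSTDC1, an LRP5/6-binding antagonist, was higher by 5.89 and 4.58.

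At day 4 the sorted cells were compared with the cjPSCM pre-ME from which their embryoid bodies were made. In cjPGCLCs 19 members were higher and 6 lower with ActA (all genes 25.3% and 23.0%), and 21 were higher and 5 lower without it (all genes 21.5% and 18.5%). In somatic cells 16 were higher and 7 lower with ActA (all genes 23.8% and 24.2%), and 18 were higher and 6 lower without it (all genes 20.6% and 21.7%). Beyond a log2 fold change of 2, 10 were higher and 4 lower in cjPGCLCs + ActA (all genes 6.15% and 2.22%), and 13 and 2 in cjPGCLCs − ActA (all genes 5.77% and 2.11%). In somatic cells there were 9 and 3 with ActA (all genes 5.29% and 3.01%), and 11 and 3 without it (all genes 4.99% and 2.96%). The members' medians were 0.68, 0.92, 0.51 and 0.55 on the log2 scale, while the median of all genes tested stayed within 0.04 of 0. The comparisons of cjPGCLCs and somatic cells share the pre-ME libraries, so their values are given side by side.

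RSPO2 and RSPO3 were called higher in all 4 comparisons. RSPO3, best known from mesoderm and placenta, had 5.01 and 4.21 normalised counts in pre-ME + ActA and 7.07 and 14.9 in pre-ME − ActA. It reached 1296 and 475 in cjPGCLCs + ActA, 2956 and 1689 in cjPGCLCs − ActA, 436 and 101 in somatic cells + ActA and 959 and 518 in somatic cells − ActA. The log2 fold changes were 7.54 ± 0.83 (SE, adjusted p = 2.54e-06) and 7.81 ± 0.73 (SE, adjusted p = 5.05e-07) in cjPGCLCs, and 5.77 ± 0.89 (SE, adjusted p = 6.49e-05) and 6.13 ± 0.72 (SE, adjusted p = 5.33e-06) in somatic cells, with ActA first. Replicates of RSPO3 were uneven in each day 4 population, up to 4.30-fold in somatic cells + ActA, yet all lay above every earlier library. RSPO2, a close relative known from limb and lung, went from 15 and 30.9 to 544 and 535 in cjPGCLCs and 260.3 and 276 in somatic cells with ActA, and from 11.2 and 9.91 to 104 and 172 in cjPGCLCs and 66.9 and 141 in somatic cells without it. Its log2 fold changes were 4.63 ± 0.39 (SE, adjusted p = 1.55e-07) and 3.64 ± 0.41 (SE, adjusted p = 3.98e-06) in cjPGCLCs, and 3.61 ± 0.39 (SE, adjusted p = 1.9e-06) and 3.28 ± 0.43 (SE, adjusted p = 1.46e-05) in somatic cells.

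WNT1 and WNT10B, neighbouring genes in the RefSeq annotation, were all but absent before day 4. WNT1 had at most 1.98 normalised counts in any of the 12 earlier libraries, against 49 and 35.5 in cjPGCLCs + ActA, 27.3 and 20.5 in cjPGCLCs − ActA, 23 and 20.9 in somatic cells + ActA and 39.2 and 20.1 in somatic cells − ActA. With ActA it was at least 28-fold higher in cjPGCLCs and at least 13.9-fold higher in somatic cells. Without ActA the ratios were 34 (8.92 to 288) and 37.6 (9.54 to 325). WNT10B had at most 3.29 normalised counts before day 4. It then had 17.7 and 24.2 in cjPGCLCs + ActA, 9.11 and 9.46 in cjPGCLCs − ActA, 19.5 and 31.3 in somatic cells + ActA and 23.1 and 13.9 in somatic cells − ActA. WNT1 and WNT10B were called in all 4 comparisons whichever library was left out.

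WNT3 rose at day 4, to 63.4 and 72.5 in cjPGCLCs + ActA and 53.9 and 28.4 in cjPGCLCs − ActA. It rose to 51.3 and 43.2 in somatic cells + ActA and 16.1 and 23.2 in somatic cells − ActA. In that order the log2 fold changes were 2.69 ± 0.39 (SE, adjusted p = 3.67e-05), 3.97 ± 0.47 (SE, adjusted p = 5.95e-06), 2.16 ± 0.41 (SE, adjusted p = 0.000398) and 2.87 ± 0.54 (SE, adjusted p = 0.000468). WNT11, a ligand known from heart and kidney formation, went with ActA from 25.9 and 30.9 to 471 and 202 in cjPGCLCs and 136 and 92.4 in somatic cells. Without ActA it went from 20.6 and 30.7 to 172 and 88.3 in cjPGCLCs and 148 and 161 in somatic cells, and was called in all 4 with log2 fold changes of 2.01 to 3.60. WNT2 was called higher again in 3 of the 4 populations. It had 140.3 and 93.8 in cjPGCLCs + ActA, 125 and 67.8 in cjPGCLCs − ActA, 70.8 and 31.3 in somatic cells + ActA and 314 and 269 in somatic cells − ActA. Its log2 fold change in somatic cells − ActA was 5.16 ± 0.54 (SE, adjusted p = 1.7e-06), and in somatic cells + ActA it was not called. WNT5A rose in all 4 comparisons, by 1.19 to 2.66 on the log2 scale, and WNT5B without ActA by 1.26 and 1.59. WNT6 rose in cjPGCLCs − ActA alone, to 18.2 and 9.46 (2.46 ± 0.86, adjusted p = 0.0328), which was lost without either pre-ME library and in DESeq2.

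Ligands of the pre-ME fell. WNT4 went from 102 and 152 in pre-ME + ActA to 6.76 and 12.8 in cjPGCLCs and 7.08 and 0 in somatic cells, and from 56 and 39.6 in pre-ME − ActA to 3.04 and 9.46 in cjPGCLCs and 11.5 and 6.19 in somatic cells. Its log2 fold changes were -3.75 ± 0.51 (SE, adjusted p = 1.97e-05) in cjPGCLCs + ActA, -3.17 ± 0.58 (SE, adjusted p = 0.000409) in cjPGCLCs − ActA, -5.23 ± 0.65 (SE, adjusted p = 8.45e-06) in somatic cells + ActA and -2.54 ± 0.61 (SE, adjusted p = 0.00298) in somatic cells − ActA, the last of which was lost without somatic cell replicate 2. In somatic cells + ActA, where replicate 2 was at 0, the WNT4 value became -10.19 without replicate 1 and -4.14 without replicate 2. WNT7A fell with ActA from 147 and 84.3 to 0.845 and 4.27 in cjPGCLCs (-5.68 ± 0.74, adjusted p = 1.33e-05) and 3.54 and 2.98 in somatic cells (-5.13 ± 0.75, adjusted p = 3.8e-05). WNT8A was at 0 in both libraries of cjPGCLCs − ActA and at least 3.61-fold lower than in pre-ME, and with ActA the ratio was 19.7 (3.16 to 819). Each WNT8A call was lost in 3 of the 4 fits with 1 library fewer, with ActA all but without pre-ME replicate 2 and without ActA all but without pre-ME replicate 1. WNT2B fell in somatic cells − ActA from 5.90 and 5.94 to 0 and 1.55, a ratio of 6.39 (0.992 to 268), and this was called in none of the fits with 1 library fewer and not in DESeq2.

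SFRP1 rose in all 4 populations at day 4. It had 40697 and 30906 normalised counts in cjPGCLCs + ActA, 22871 and 17998 in cjPGCLCs − ActA, 31928 and 22539 in somatic cells + ActA and 43950.4 and 39251 in somatic cells − ActA, against 4137 and 3839.6 in pre-ME + ActA and 3639.6 and 3656 in pre-ME − ActA. The log2 fold changes lay between 2.47 and 3.48 and were called whichever library was left out. FRZB rose with ActA, by 3.44 ± 0.64 (SE, adjusted p = 0.000331) in cjPGCLCs and 2.88 ± 0.66 (SE, adjusted p = 0.00178) in somatic cells on the log2 scale, from the low level in pre-ME + ActA. SFRP5 rose in cjPGCLCs by 3.68 with ActA, which was lost without cjPGCLC replicate 1, and by 3.66 without it. WIF1 rose in cjPGCLCs − ActA (3.58 ± 0.71, adjusted p = 0.0011). DKK2 fell in cjPGCLCs + ActA by 2.13, which was lost without replicate 1 of either condition. SFRP4 rose in somatic cells − ActA from 1.18 and 0.991 to 11.5 and 15.5, a ratio of 12.5 (3.54 to 67.5), which was lost without somatic cell replicate 2.

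FZD4 and FZD5 moved in different ways at this step. FZD4 had 733 and 900.2 normalised counts in pre-ME + ActA and 1093 and 1063 in pre-ME − ActA, against 3456 and 4284 in cjPGCLCs + ActA, 4470.1 and 4345 in cjPGCLCs − ActA, 4825 and 5185 in somatic cells + ActA and 4887 and 5175 in somatic cells − ActA. In that order its log2 fold changes of 2.25 ± 0.18 (SE, adjusted p = 1.2e-07), 2.02 ± 0.18 (SE, adjusted p = 3.13e-07), 2.61 ± 0.19 (SE, adjusted p = 2.63e-08) and 2.19 ± 0.18 (SE, adjusted p = 1.2e-07) were the largest of any FZD gene that rose. FZD1 and LRP6 rose in all 4, with log2 fold changes up to 1.03, and FZD2 and FZD9 fell in all 4, by up to 1.08 and 0.78. In somatic cells − ActA the FZD2 and FZD9 calls were lost without any 1 library and LRP6 without pre-ME replicate 2. In somatic cells + ActA FZD2 was lost without replicate 1 of either condition, FZD9 without pre-ME replicate 1 or somatic replicate 2 and FZD1 without somatic replicate 1, and in cjPGCLCs + ActA FZD9 was lost without pre-ME replicate 1. FZD5 fell in somatic cells, with log2 fold changes of -2.77 ± 0.47 (SE, adjusted p = 0.000166) and -2.74 ± 0.47 (SE, adjusted p = 0.000218). In cjPGCLCs it was not called, with 0.13 ± 0.37 (SE, adjusted p = 0.787) and 0.48 ± 0.36 (SE, adjusted p = 0.31).

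The same step changed the rest of the pathway and the cell type markers. Feedback targets fell, and none rose. In cjPGCLCs 7 and 4 of 9 fell (all genes 23.0% and 18.5%), with ActA first. In somatic cells 7 and 6 of 9 fell (all genes 24.2% and 21.7%). SP5 fell in each, with log2 fold changes of -6.17, -4.48, -6.47 and -5.31. PRICKLE2, a planar polarity gene, rose by 4.07, 3.77, 4.21 and 3.56. Of 5 endoderm markers 5 rose in cjPGCLCs and 2 or 3 in somatic cells. Of 5 amnion-like markers tested 5 rose in cjPGCLCs and 4 in somatic cells in both ActA conditions, and of 6 mesenchyme markers 4 rose in cjPGCLCs and 5 or 6 in somatic cells. Of all genes tested, 25.3% and 21.5% rose in cjPGCLCs and 23.8% and 20.6% in somatic cells, with ActA first. The amnion-like list summed to 808 to 876 in pre-ME − ActA, 1297 to 1331 in pre-ME + ActA and between 7949.7 and 9988 at day 4. Their part in the results for the members was not tested.

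Finally, cjPGCLCs were compared with the somatic cells from embryoid bodies of the same ActA condition. With ActA 4 members were higher and 2 lower in cjPGCLCs (all genes 3.68% and 1.16%), and without ActA 6 were higher and 2 lower (all genes 6.67% and 2.96%). These comparisons share no library. FZD5 and SFRP5 were higher and SFRP2 lower in both, where the genes that were higher in both are 50% of the 4 with ActA and 33.3% of the 6 without it. The overlap over all genes was not counted here either, so these shares only describe the members. Whether the difference between the populations depended on ActA was tested as an interaction. No member was called by edgeR (0.0633% of all genes), 7 had an unadjusted p under 0.05, and DESeq2 called 2, FZD8 and WNT2.

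FZD5, a receptor for canonical ligands, had 165 and 233 normalised counts in cjPGCLCs and 21.2 and 31.3 in somatic cells with ActA. Without ActA it had 224 and 317 in cjPGCLCs and 18.4 and 37.1 in somatic cells. The populations did not overlap, and the log2 fold changes of 2.90 ± 0.47 (SE, adjusted p = 0.00144) and 3.22 ± 0.47 (SE, adjusted p = 0.000242) were called whichever library was left out. SFRP2, an antagonist abundant in mesenchyme, had 3331 and 6675 in cjPGCLCs and 18308 and 20775 in somatic cells with ActA, and 2054 and 2596 in cjPGCLCs and 12467 and 15001 in somatic cells without it. Its log2 fold changes of -1.96 ± 0.25 (SE, adjusted p = 0.000204) and -2.55 ± 0.26 (SE, adjusted p = 8.21e-06) were called in all such fits too. SFRP5, an antagonist known from foregut endoderm, was at 0 in all 4 somatic libraries and had 54.9 and 9.95 in cjPGCLCs + ActA and 47.8 and 52 in cjPGCLCs − ActA. It was at least 15.7-fold higher with ActA, a call lost without either somatic library or cjPGCLC replicate 1, and at least 17.7-fold higher without ActA, a call lost without somatic replicate 2.

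Several differences were called in 1 of the ActA conditions. Without ActA DKK1 had 2021 and 2736 in cjPGCLCs and 710.3 and 594 in somatic cells, a log2 fold change of 1.89 ± 0.31 (SE, adjusted p = 0.000799) that no single library decided. With ActA it had 897 and 1450.3 in cjPGCLCs and 602 and 538 in somatic cells (1.05 ± 0.31, adjusted p = 0.0666). WIF1 without ActA was at 0 in somatic cells and had 14.4 and 25.2 in cjPGCLCs, at least 6.46-fold higher, which was lost without somatic replicate 2. RSPO3 was higher in cjPGCLCs without ActA (1.69 ± 0.50, adjusted p = 0.0406), a call lost without either somatic library or cjPGCLC replicate 1, and with ActA its log2 fold change was 1.76 ± 0.52 (SE, adjusted p = 0.0656). WNT2 without ActA was lower in cjPGCLCs (-1.54 ± 0.42, adjusted p = 0.0286), which was lost without either somatic library or cjPGCLC replicate 2, and with ActA it had a log2 fold change of 1.24 ± 0.47 (SE, adjusted p = 0.17). WNT9A without ActA was higher by 1.72, in none of the fits with 1 library fewer. With ActA WNT11 was higher (1.59 ± 0.41, adjusted p = 0.0331), lost without either somatic library or cjPGCLC replicate 1, and without ActA its log2 fold change was -0.20 ± 0.41 (SE, adjusted p = 0.863). DKK3 with ActA was higher by 0.81 (lost in 3 of 4 fits, but not without cjPGCLC replicate 2) and FZD8 lower by 0.52 (lost in all 4). The 6 calls with ActA became 3 and 2 without somatic replicate 1 and 2 and 2 without cjPGCLC replicate 1, and the 8 calls without ActA became 5 and 3 without somatic replicate 1 and 2.

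**Figure D4:**
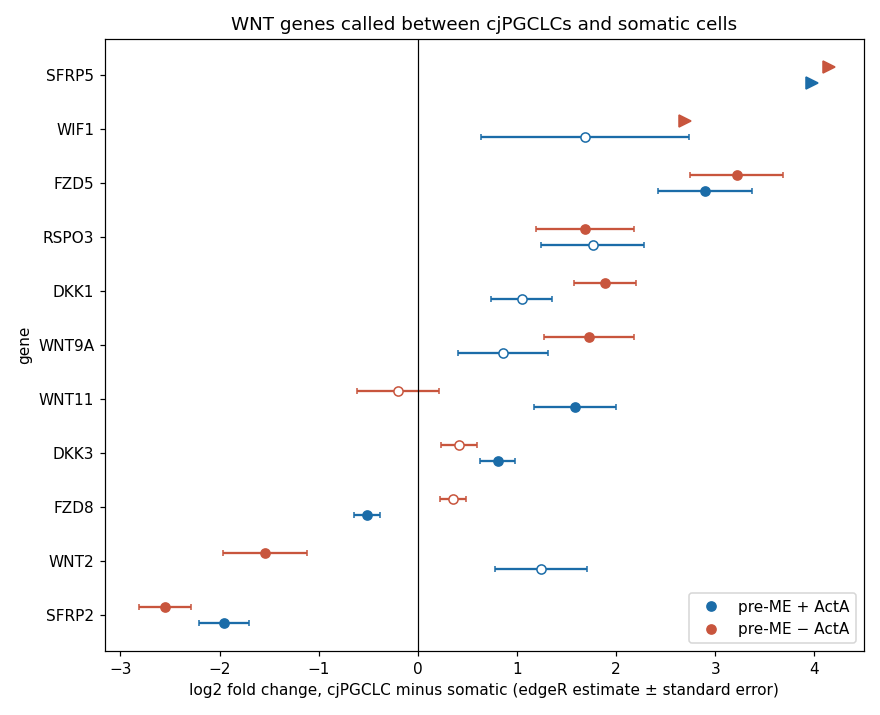
Log2 fold change with its standard error (horizontal axis) of the members called between cjPGCLCs and somatic cells, for embryoid bodies from pre-ME + ActA (blue) or − ActA (red), 2 libraries in each population. Filled symbols are called, open points are not, and triangles mark lower bounds for genes at 0 in somatic cells. FZD5 and SFRP5 lie right of 0 and SFRP2 left of it in both.

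Endoderm markers moved with these differences. FOXA2 and APOA1 were higher in cjPGCLCs in both sorts. FOXA2 had 83.9 to 192 normalised counts in cjPGCLCs + ActA and 356 to 518 in cjPGCLCs − ActA, and at most 4.61 in any somatic library, with 0 in both libraries of somatic cells + ActA. The whole endoderm list, in which GATA4 and GATA6 did not differ between the populations by a called amount, summed to 3657 to 6117 against 2844 to 3908 with ActA and to 5929 to 9496 against 4830.0 to 5512 without it. Of 6 mesenchyme markers 4 were lower in cjPGCLCs − ActA (all genes 2.96%) and none was called with ActA (all genes 3.68% higher and 1.16% lower). The mesenchyme list summed to 44837 to 55635 in cjPGCLCs and 43071 to 56892 in somatic cells with ActA, and to 31167 to 37588 and 50259 to 56710.2 without it. The part of these cells in the differences of SFRP5, FZD5, WIF1, DKK1 and SFRP2 was not tested.

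**Figure D5:**
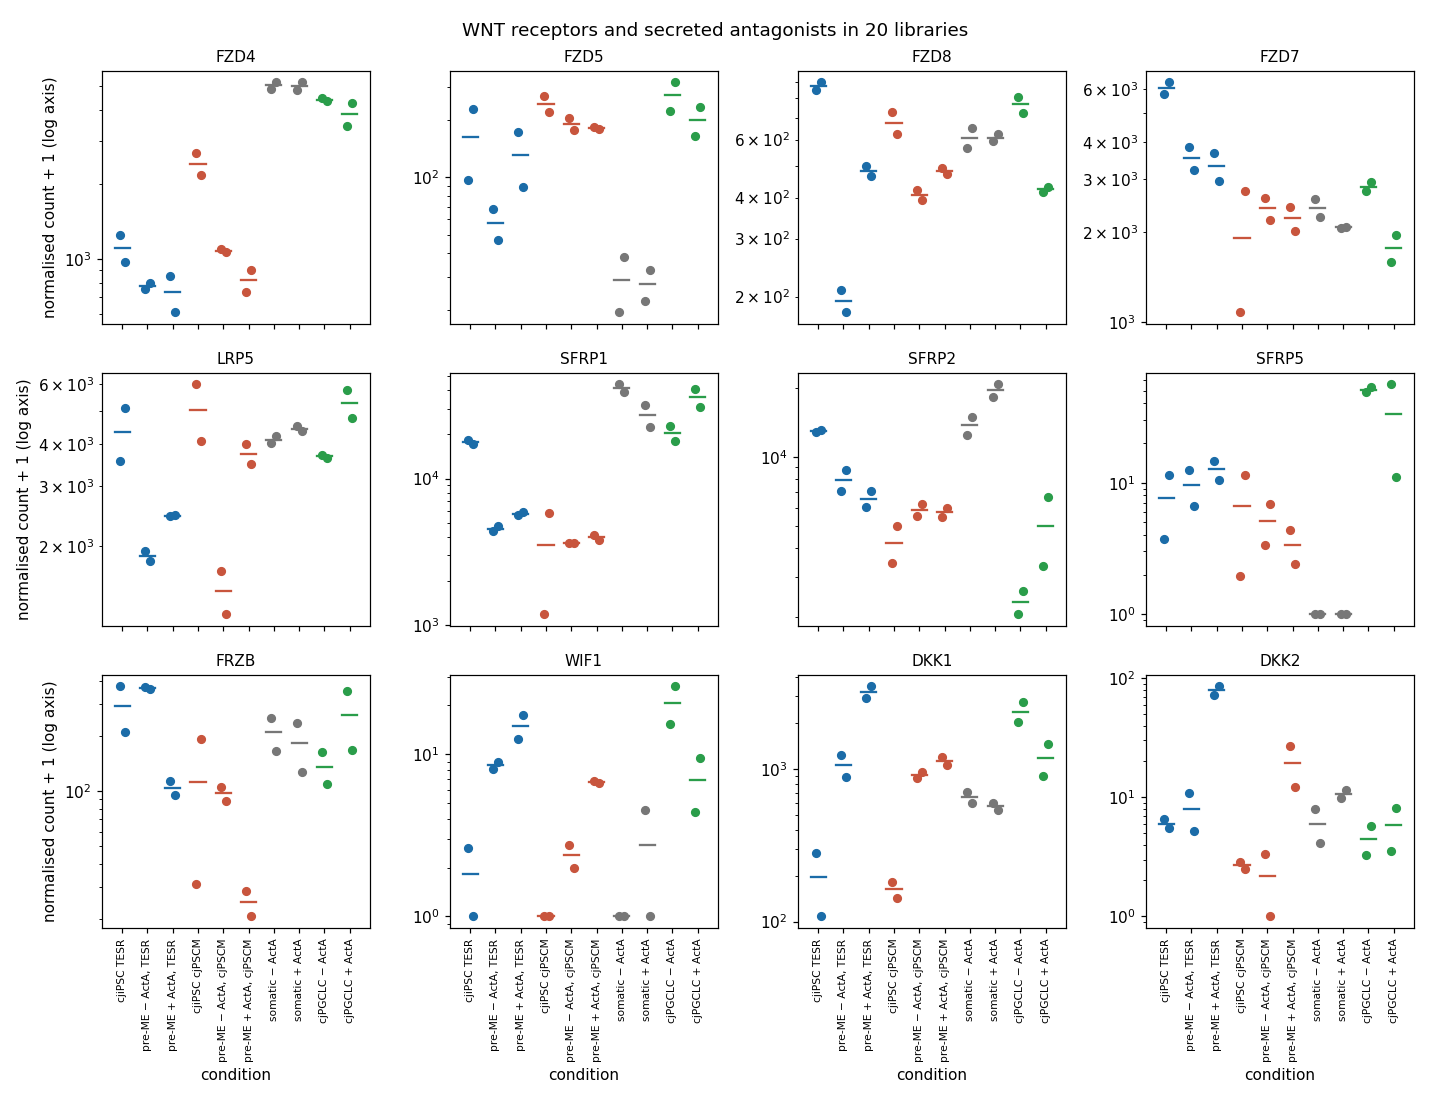
Normalised counts + 1 (log axis) of 5 receptors or co-receptors and 7 antagonists in each library (points) of the 10 conditions, with the mean of 2 libraries as a bar. Colours mark TESR medium (blue), cjPSCM (red), somatic cells (grey) and cjPGCLCs (green). SFRP5 is at 0 in all somatic libraries, and FZD5 is lower there than in every other library.

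Day 4 cells whose pre-ME had or had not received ActA were compared last. In cjPGCLCs 3 members were higher and 1 lower after ActA (all genes 1.37% and 1.16%), none beyond a log2 fold change of 2. RSPO2 had 544 and 535 normalised counts after ActA and 104 and 172 without it, a log2 fold change of 1.99 ± 0.32 (SE, adjusted p = 0.00319) that was lost without cjPGCLC − ActA replicate 1. FZD8 had 414 and 431 after ActA and 809.6 and 723 without it, a log2 fold change of -0.87 ± 0.13 (SE, adjusted p = 0.0022) that no single library decided. SFRP2 was higher by 1.10, lost without cjPGCLC + ActA replicate 2 or either library without ActA, and FZD1 by 0.56, called in none of the fits with 1 library fewer. The 4 calls became 1 and 2 without cjPGCLC − ActA replicate 1 and 2. In somatic cells edgeR called no member (0.0253% of all genes), 7 had an unadjusted p under 0.05, and DESeq2 called WNT2, which had 70.8 and 31.3 after ActA and 314 and 269 without it. In edgeR its log2 fold change was -2.53 ± 0.47 (SE, adjusted p = 0.0804).

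The 9 members that were not tested had few counts, and 3 counts stand for 1.40 to 6.92 normalised counts in these libraries. WNT7B reached 20.8 in 1 TESR cjiPSC library, WNT16 9.22 and RSPO4 6.92 in 1 library of somatic cells − ActA, and WNT8B 8.89 in 1 cjPSCM cjiPSC library. DKK4 had counts in every library of pre-ME + ActA, between 1.67 and 3.72. WNT10A, WNT9B, RSPO1 and FZD10 did not exceed 1.69. In the RefSeq gene order of the assembly calJac240_pri, which is not the build of the counts, 4 pairs of members were next to each other among protein-coding genes. WNT9A and WNT3A, WNT6 and WNT10A, and WNT9B and WNT3 are the other 3 pairs beside WNT1 and WNT10B. WNT1 and WNT10B were both called higher in all 4 comparisons of day 4 cells with pre-ME, while of WNT3 and WNT9B only WNT3 was expressed enough to test. WNT9A and WNT3A were both tested. WNT3A was called only between the media and on induction from cjPSCM without ActA, so this pair was not called together at day 4.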

How the data were processed

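RNA was sequenced from 20 libraries of 10 conditions. Per the study's methods and the submitters' processing notes, reads were checked with FastQC 0.11.8, aligned with STAR 2.7.0a to the calJac4 genome and counted per gene with HTSeq 0.11. The strand setting and the annotation release are not given in the sources used here. The authors deposited raw read counts and a table in which the counts of each library are divided by a DESeq2 size factor. This deposited signal, normalised by the authors to library size, is called normalised count here and was used for levels only. Of the genes, 9025 carry LOC identifiers. Reads on no gene (10.6% to 23.2% of all counted) and ambiguous reads (0.268% to 0.350%) were left out. The share on no gene was 10.6% and 13.3% in TESR cjiPSCs and 12.2% and 19.3% in cjPSCM cjiPSCs. In the other conditions it was 17.2% to 23.2%. Comparisons with cjiPSCs therefore also compare libraries that differ in this share, and its part in the results was not tested.

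Tests used the raw counts and the quasi-likelihood F-test of edgeR 4.0.16 (R 4.3.3), with TMM factors and its expression filter per condition, in 1 model of all 20 libraries with 10 residual degrees of freedom. The study's methods used DESeq2, which was run as an alternative. P-values were adjusted by Benjamini and Hochberg over all 15797 genes in each of 17 comparisons and 3 interactions. A standard error is the log2 fold change divided by the root of F. Over all genes the median log2 fold change stayed under 0.1 in size. Where 1 of 2 conditions had no counts, the fold is a bound against 3 counts over both libraries. The tests were checked on simulated counts. The 2 libraries of a condition did not agree within sampling noise in any condition, and libraries of different conditions were not compared in this way. Groups came from the labels, which call the replicates biological without naming cultures or passages, so p-values measure the spread between these samples. Alternatives were DESeq2 1.42.0, its size factors in edgeR, no filter on low counts, a mean of at least 1 CPM, a replicate block, the libraries of each comparison alone, and each library left out. Tables and plots were made in Python 3.11.15 with pandas 2.3.3 and matplotlib 3.10.9.

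Members, gene lists and tests were chosen with earlier results of these data known. Each comparison names every member called beyond a log2 fold change of 2, and a preset set of ligands, receptors and antagonists whatever their values. Per-library values were preset for the 15 members called beyond 2 in most comparisons, and those of other members were added after their values were seen. Genes of other pathway lists are named only when called beyond 2. RefSeq gene order of the assembly calJac240_pri gave the neighbours of the 47 members.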

Additional observations from a re-analysis of the deposited data

Results flagged for a closer look

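The response of 7 member and comparison pairs differed between cells from cjPSCM and cells from TESR medium, each by an interaction test in edgeR. The difference is the log2 fold change in cells from cjPSCM minus that in cells from TESR medium. For the response to ActA in pre-ME the difference was -1.09 ± 0.18 (SE, adjusted p = 0.0154) for FZD8. For induction without ActA it was -2.32 ± 0.40 (SE, adjusted p = 0.00249) for WNT5B and 1.46 ± 0.18 (SE, adjusted p = 0.000199) for FZD8. It was 2.06 ± 0.59 (SE, adjusted p = 0.0457) for SFRP1, 1.20 ± 0.35 (SE, adjusted p = 0.0486) for SFRP2, 1.07 ± 0.31 (SE, adjusted p = 0.0474) for FZD3 and 0.88 ± 0.24 (SE, adjusted p = 0.0384) for DKK3. The levels behind them and the libraries that decide them stand with the comparisons above.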

How the results depend on the processing

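With 2 libraries in each condition the number of members called depended on the set of libraries more than on the tool. Single members were followed under all alternatives in 109 pairs of a member and a comparison, which are the calls beyond a log2 fold change of 2 and the called interactions. In these pairs 991 values kept their call, 118 lost it and none reversed its direction. The other calls were followed when 1 library was left out and under the replicate block. Fitting only the libraries of a comparison, which leaves fewer degrees of freedom and another set of filtered genes, gave 9 calls between the media, 3 and 4 for induction from cjPSCM with and without ActA, and 16 for ActA from TESR medium. It gave 19 and 14 for the origin of pre-ME with and without ActA, 10 for the sort with ActA, and 10 and 5 for ActA in cjPGCLCs and somatic cells. The interactions then had 6 calls (ActA by medium), 2 (induction by medium) and 3 (sort by ActA). Without a filter on low counts there were 14 calls for ActA from cjPSCM, 18 and 15 for the origin with and without ActA, 11 for the sort with ActA, 12 and 4 for ActA in cjPGCLCs and somatic cells, and 4, 12 and 4 for the interactions in the same order. DESeq2 gave 1 call for ActA in somatic cells and 2 each for the interactions of ActA by medium and sort by ActA, and its size factors in edgeR gave 3 for induction by medium. The cause of these differences was not tested.

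Leaving out 1 library gave 12 to 17 calls between the media. For induction it gave 15 to 19 and 11 to 12 from TESR medium with and without ActA, and 5 to 17 and 8 to 18 from cjPSCM. For ActA it gave 4 to 6 from TESR medium, 3 to 5 from cjPSCM, 1 to 3 in cjPGCLCs and 0 in somatic cells. For the origin of pre-ME it gave 5 to 8 with and 2 to 5 without ActA, and for the sort 2 to 6 and 3 to 7. For day 4 cells against pre-ME it gave 19 to 25 and 23 to 25 in cjPGCLCs and 17 to 21 and 17 to 21 in somatic cells. The interactions had 0 to 1 (ActA by medium), 2 to 11 (induction by medium) and 0 (sort by ActA).

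The labels give conditions the same replicate numbers without saying what a number marks. Libraries of the same number had correlations of their deviations between -0.204 and 0.258. The replicate block gave 14 calls between the media, 22 and 17 for induction from TESR medium, 12 and 13 from cjPSCM, 10 and 10 for ActA from TESR medium and cjPSCM, 12 and 6 for the origin, 8 and 8 for the sort, 5 and 0 for ActA at day 4, 25, 26, 21 and 23 for day 4 cells against pre-ME, and 1, 4 and 0 for the interactions. With the block RSPO3 was called higher in cjPGCLCs + ActA than in somatic cells (adjusted p = 0.00417, against 0.0656) and WNT5B higher with ActA from both media (0.0129 and 0.0275). Also called with it were WLS higher in cjPGCLCs + ActA than in somatic cells (0.0475), SFRP2 higher on induction from cjPSCM without ActA (0.0323), and RSPO3 lower after ActA in cjPGCLCs (log2 fold change -1.49, 0.0166) and lower in pre-ME + ActA from cjPSCM than from TESR medium (-2.26, 0.0310). No longer called were FRZB between the media (0.0524), WNT3 on induction from cjPSCM with ActA (0.0520), FZD8 (0.0504) and PORCN (0.0536) in somatic cells + ActA and WNT2B (0.0513) in somatic cells − ActA, each against pre-ME, and the interactions of FZD3 (0.0610) and SFRP1 (0.0554). Where numbers correlated under -0.1, a crossed pairing chosen after seeing the data gave 12 and 12 calls for induction from cjPSCM and 23 for somatic cells − ActA against pre-ME. Depth limits the members with few counts, for which only bounds or wide counting intervals are given.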

Other observations

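The rest of the pathway gave further values. Among 18 tested receptors and extracellular regulators outside the 47 members, the change of medium in cjiPSCs raised 4 and lowered 11 in cjPSCM (of all genes tested 18.1% each way). SOST and SOSTDC1, both antagonists of LRP5 and LRP6, were higher by 3.95 and 4.39 on the log2 scale, and LGR5, a receptor for R-spondins, had a log2 fold change of -5.21. LGR5 rose again on induction from cjPSCM, by 3.65 with ActA and 3.69 without it. Of 18 cytoplasmic and nuclear genes 1 was higher and 7 were lower in cjPSCM than in TESR cjiPSCs (all genes 18.1% each way). On induction from TESR medium with ActA 4 rose and 2 fell (all genes 17.3% and 17.1%), a share near that of all genes.

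Marker lists not described above also moved. Of 4 tested pluripotency markers 4 fell in cjPGCLCs + ActA and 3 in cjPGCLCs − ActA against pre-ME (all genes 23.0% and 18.5%). In somatic cells 3 and 4 fell (all genes 24.2% and 21.7%). Of 3 neural markers ZIC1 was called higher beyond a log2 fold change of 2 in all 4 inductions. Of 5 germ cell markers SOX17, TFAP2C and DPPA3 were higher in cjPSCM than in TESR cjiPSCs (all genes 18.1%).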
